A study of Mus musculus with 6 samples.

Results

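Transcripts of 7 genes for lymphatic surface and secreted proteins, *Lyve1*, *Pdpn*, *Pecam1*, *Mmrn1*, *Reln*, *Stab2* and *Thy1*, were examined in bulk RNA-seq of dural lymphatic endothelial cells (LECs), sorted from the lymphatic vessels of the dura mater. They were chosen by gene name, are 7 of the 55401 rows of the tables, and each matched 1 row. All 6 libraries came from wild-type male C57BL/6J mice injected at 4 wk of age into the cisterna magna. The 3 AAV-VEGF-C libraries came from mice given an adeno-associated virus (AAV9) encoding full-length mouse VEGF-C, and the 3 AAV-CTRL libraries from mice given AAV9 encoding VEGFR3(4-7)-Ig, ectodomains of the receptor that do not bind VEGF-C. Each library pooled the dorsal dura of 10 to 12 mice, and the experiment was done 3 times, giving 1 library of each group per experiment, numbered 1 to 3. Cells were sorted as CD45-, CD31+, Podoplanin+ and LYVE-1+, that is, on the proteins encoded by *Pecam1*, *Pdpn* and *Lyve1*. The level of these 3 genes was therefore set in part by the gate, and their presence is not a finding. The interval between injection and sort, the RNA yield and the purity of the sort are not given in the sources used here.

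Lymphatic endothelium takes up fluid, cells and hyaluronan from tissue and is told from blood endothelium by a small set of surface and secreted proteins that appear under the transcription factor PROX1. LYVE-1 is a hyaluronan receptor that tissue-resident macrophages also carry, and Stabilin-2 is an endocytic receptor for hyaluronan and other ligands. Podoplanin is a mucin-like glycoprotein that engages the platelet receptor CLEC-2, and PECAM-1 (CD31) is an adhesion molecule of endothelial junctions in blood and lymphatic vessels alike. Multimerin 1 and reelin are secreted glycoproteins, the latter known chiefly as a guidance signal for migrating neurons. THY1 (CD90) is a lipid-anchored adhesion protein shared with T cells, neurons and fibroblasts. VEGF-C acts on LECs through VEGFR3, the product of *Flt4*.

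The genes differ widely in size and in their neighbours (GRCm38, GENCODE M21). *Lyve1* (chromosome 7, 110850607 to 110863239, minus strand), *Pdpn* (chromosome 4, 143267431 to 143299564, minus strand), *Pecam1* (chromosome 11, 106654217 to 106750628, minus strand), *Mmrn1* (chromosome 6, 60924976 to 60989378, plus strand) and *Thy1* (chromosome 9, 44043384 to 44048579, plus strand) overlap no other annotated gene. *Reln* (chromosome 5, 21884454 to 22344702, minus strand) spans 460.2 kb with 23.74 kb of exon, and 1 exon of *Gm10475* overlaps its exons from the other strand. *Stab2* (chromosome 10, 86841198 to 87008025, minus strand) overlaps an exon of *Gm16268* in the same way. Use of strand in counting is not given in the sources used here, so reads of these 2 pairs cannot be told apart.

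The sequence upstream of the start was read for the 4 members that the RefSeq promoter table (GRCm38.p6) holds, and is shown as a description. *Mmrn1*, *Reln* and *Stab2* varied together between experiments while *Pdpn* varied less, and whether the sequence bears on this was not tested. The window is the 250 bases before the RefSeq start, shortened to 167 bases for *Stab2* where an annotated exon begins. Capitals mark matches to AACAAT or ACAAAG, the core bound by SOX factors, on either strand.
*Pdpn*, chr4:143299565-143299814, minus strand: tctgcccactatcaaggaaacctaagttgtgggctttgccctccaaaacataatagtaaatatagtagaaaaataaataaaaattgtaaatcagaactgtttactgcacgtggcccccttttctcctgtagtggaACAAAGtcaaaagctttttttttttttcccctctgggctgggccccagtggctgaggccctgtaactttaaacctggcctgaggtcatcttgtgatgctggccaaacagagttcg
*Mmrn1*, chr6:60944067-60944316, plus strand: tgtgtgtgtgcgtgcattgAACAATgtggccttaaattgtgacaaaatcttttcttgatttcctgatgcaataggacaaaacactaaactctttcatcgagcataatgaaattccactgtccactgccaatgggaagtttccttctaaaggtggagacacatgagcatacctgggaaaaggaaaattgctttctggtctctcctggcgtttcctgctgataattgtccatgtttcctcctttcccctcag
*Reln*, chr5:22344706-22344955, minus strand: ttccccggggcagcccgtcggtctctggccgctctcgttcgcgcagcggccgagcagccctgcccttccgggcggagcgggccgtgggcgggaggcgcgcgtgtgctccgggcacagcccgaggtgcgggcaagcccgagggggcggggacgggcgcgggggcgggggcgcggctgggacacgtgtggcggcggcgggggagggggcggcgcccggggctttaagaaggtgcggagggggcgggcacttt
*Stab2*, chr10:87008026-87008192, minus strand: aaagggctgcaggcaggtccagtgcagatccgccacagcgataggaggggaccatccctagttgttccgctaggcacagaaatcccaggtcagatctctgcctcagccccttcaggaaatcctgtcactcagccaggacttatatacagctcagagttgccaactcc
The RefSeq start of *Mmrn1* coincides with the start of an internal GENCODE exon, so its window lies in an intron of the longer transcript. The *Reln* window was 80.0% G and C with 37 CpG, against a median of 52.4% and 6 CpG over all 32851 promoters, and 98.9% of promoters had no more G and C. The windows of *Pdpn* (43.2%), *Mmrn1* (42.4%) and *Stab2* (53.2% over all 250 bases) held 2 or 3 CpG each. A SOX core was found in the *Pdpn* and *Mmrn1* windows and in 24.0% of all promoters. The ETS core AGGAAG was sought on either strand. It was found on the strand opposite to the gene in the exon part of the *Stab2* window, which is not shown, and in 29.5% of all promoters. Neither the GATA core AGATAA (9.99% of promoters) nor TATAAA (12.4%) was found in the 4 windows.

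Depth differed between groups, with 6530269 to 12399498 counts per library in AAV-CTRL and 564475 to 3261935 in AAV-VEGF-C, so depth and treatment cannot be told apart. Beside the members, 16 other lymphatic genes were read, all of which had counts in every library. The presence of counts does not by itself check the lymphatic label. *Prox1* lay between 6.44 and 14.1 TPM (transcript abundance per length, scaled to the library) in AAV-CTRL and between 3.15 and 9.62 TPM in AAV-VEGF-C. Genes of other cell types were also present. The 20 stromal genes, such as *Col1a1*, summed to 2600 to 5725 TPM in AAV-CTRL and 568 to 1889 TPM under AAV-VEGF-C, beside 206 to 262 and 74.8 to 126 TPM for the 7 lymphatic members. The 11 macrophage genes summed to 69.6 and 35.6 TPM in experiment 1 of AAV-CTRL and AAV-VEGF-C, but to 822 to 2739 TPM in experiments 2 and 3. As a background, 2187 olfactory, vomeronasal and taste receptor, keratin-associated protein and defensin genes averaged 0.0237 to 0.0343 TPM in AAV-CTRL and 0.331 to 0.360 TPM in AAV-VEGF-C. All 7 members exceeded the 99th percentile of that background in every library, with the exception of *Stab2* in AAV-VEGF-C 1 (4.30 against 5.95 TPM). Of the 16 other lymphatic genes, *Ackr4*, *Gata2*, *Sox18*, *Itga9*, *Foxc2*, *Fxyd6* and *Ackr2* (0.369 to 4.97 TPM) also lay below it in that library, and the rest above. *Ackr4* was at or under 0.72 TPM in every library.

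All 7 members were detected in all 6 libraries, with *Mmrn1*, *Pecam1* and *Thy1* the most abundant in AAV-CTRL and *Stab2* the least. *Mmrn1*, the secreted multimerin, was at 78.4, 46.8 and 44.8 TPM in AAV-CTRL 1, 2 and 3 and at 38.8, 18.3 and 12.0 TPM in AAV-VEGF-C 1, 2 and 3. Experiment 1 was the highest library of each group, and the groups did not overlap. *Reln*, the other secreted protein, was at 32.8, 16.3 and 16.0 TPM in AAV-CTRL and at 29.0, 20.7 and 10.5 TPM in AAV-VEGF-C. These groups overlapped, and their means were 21.7 ± 9.61 (SD, n = 3) and 20.1 ± 9.25 TPM. Among the hyaluronan receptors, *Lyve1* was at 16.0, 42.0 and 22.6 TPM in AAV-CTRL and at 9.61, 13.8 and 11.1 TPM in AAV-VEGF-C. Experiment 2 was the highest in both groups. *Stab2* was at 14.3, 7.71 and 10.9 TPM in AAV-CTRL and at 4.30, 3.98 and 3.94 TPM in AAV-VEGF-C. In TPM its 3 AAV-VEGF-C values lay closer together (SD 0.195) than those of any other member in either group. This did not hold for counts scaled to the TMM-adjusted library total (CPM). On that scale *Stab2* was at 208, 62.4 and 42.6 in AAV-VEGF-C 1, 2 and 3, a 4.89-fold range. *Pdpn* was at 24.7, 20.2 and 21.2 TPM in AAV-CTRL and at 6.25, 5.17 and 8.20 TPM in AAV-VEGF-C. It was the steadiest member in AAV-CTRL, with a coefficient of variation of 10.7%. *Pecam1* was at 20.9, 46.1 and 121 TPM in AAV-CTRL and at 12.9, 16.1 and 12.2 TPM in AAV-VEGF-C, a 5.81-fold range within the first group and 1.31-fold within the second. *Thy1* was at 38.9, 26.7 and 24.9 TPM in AAV-CTRL and at 25.0, 17.4 and 16.7 TPM in AAV-VEGF-C, where the highest AAV-VEGF-C library just passed the lowest AAV-CTRL library.

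**Figure D1:**
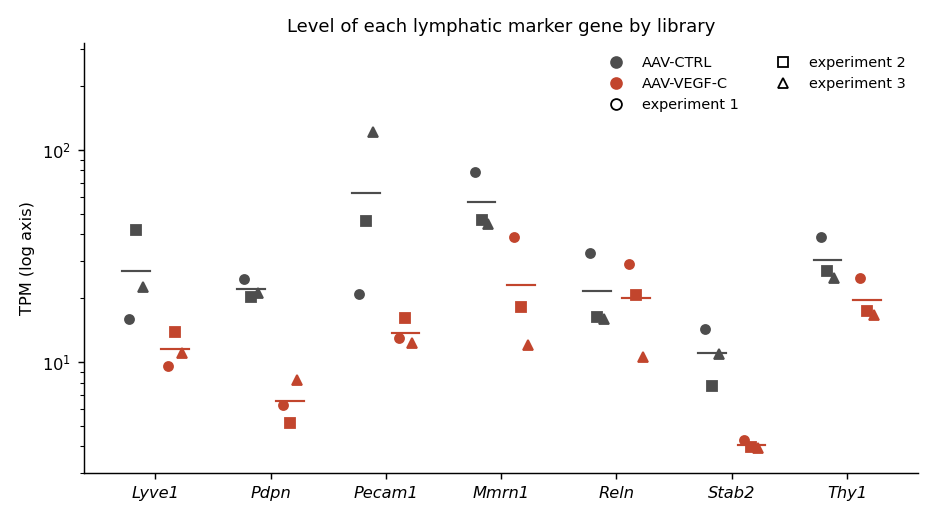
TPM of the 7 genes in each library on a log axis, with AAV-CTRL in grey and AAV-VEGF-C in red, the experiment given by the shape of the point and the group mean (n = 3) by a line. The groups are apart for *Lyve1*, *Pdpn*, *Pecam1*, *Mmrn1* and *Stab2* and overlap for *Reln* and *Thy1*.

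The order of the levels was not fixed. *Stab2* was the lowest member in all 6 libraries. The highest was *Mmrn1* in AAV-CTRL 1, AAV-CTRL 2 and AAV-VEGF-C 1, *Pecam1* in AAV-CTRL 3, *Reln* in AAV-VEGF-C 2 and *Thy1* in AAV-VEGF-C 3. By group means, AAV-CTRL ran from *Pecam1* (62.8 ± 52.3 TPM) and *Mmrn1* (56.7 ± 18.9) through *Thy1* (30.2 ± 7.59), *Lyve1* (26.9 ± 13.5), *Pdpn* (22.0 ± 2.36) and *Reln* to *Stab2* (11.0 ± 3.31). The ranges of neighbours in that order overlapped, except between *Mmrn1* and *Thy1* and between *Reln* and *Stab2*. In AAV-VEGF-C the order was *Mmrn1* (23.0 ± 14 TPM), *Reln*, *Thy1* (19.7 ± 4.59), *Pecam1* (13.7 ± 2.03), *Lyve1* (11.5 ± 2.14), *Pdpn* (6.54 ± 1.53) and *Stab2* (4.07 ± 0.195). Here the ranges did not overlap between *Thy1* and *Pecam1*, *Lyve1* and *Pdpn*, and *Pdpn* and *Stab2*. Among 21208 protein-coding genes, *Mmrn1* ranked above 91.3% to 99.5% of genes in the 6 libraries, *Thy1* above 89.0% to 99.1% and *Stab2* above 69.3% to 89.6%.

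Against 20 genes of blood endothelium, such as *Flt1* and *Vwf*, the members were mostly higher, and against 20 stromal genes mostly lower. The difference between a member and the median of a list, both as log2(TPM + 1), was above 0 for blood endothelium in 15 of 21 AAV-CTRL values and 19 of 21 AAV-VEGF-C values. Against the stromal list it was above 0 in 1 of 21 and 8 of 21 values. *Mmrn1* exceeded the blood endothelial median by 5.03, 2.0 and 0.28 in AAV-CTRL 1, 2 and 3, and by 4.21, 1.79 and 0.95 in AAV-VEGF-C. It was above all 20 blood endothelial genes in experiment 1 of both groups, but 11 of 20 in AAV-CTRL 3. *Stab2* exceeded that median only in experiment 1, by 2.65 for AAV-CTRL and by 1.30 for AAV-VEGF-C. In AAV-CTRL 3, 5 members lay below the blood endothelial median, and *Mmrn1* and *Pecam1* lay above it. In that library the 20 blood endothelial genes summed to 1115 TPM, against 148 in AAV-CTRL 1, 389 in AAV-CTRL 2 and 64.3 to 175 in AAV-VEGF-C.

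Relative to blood endothelium, no member passed the test between groups. The difference AAV-VEGF-C minus AAV-CTRL ran from -0.52 for *Pecam1* to 1.12 for *Reln*, all 7 overlapped between groups (1.48% of 17459 tested genes were higher in every AAV-VEGF-C library on this scale and 0.275% lower), and the smallest p was 0.4 (two-sided exact permutation test, adjusted p = 0.7 over 14 comparisons). Relative to the stromal list, *Reln* was higher in AAV-VEGF-C by 2.18, *Thy1* by 1.73 and *Stab2* by 1.11, each with no overlap between groups. The exact permutation p was 0.1 for each, the smallest that 3 libraries against 3 can give, and 0.467 after adjustment. On that scale 73.2% of all tested genes were higher in every AAV-VEGF-C library, and 0.0172% lower, so the 3 of 7 members stand below that share. The other members overlapped between groups. Taken within experiments, *Pecam1* against blood endothelium was lower in AAV-VEGF-C in all 3 (-0.47, -0.37 and -0.72) and *Reln* higher in all 3 (0.01, 1.42 and 1.93). The share of all genes with the same sign in all 3 against blood endothelium was not counted. Against stromal genes *Lyve1* (2.75, 0.06 and 0.96), *Mmrn1* (2.43, 0.28 and 0.11), *Reln*, *Stab2* and *Thy1* were higher in all 3. At least 73.2% of all tested genes were too, since a gene higher in every AAV-VEGF-C library is higher within each experiment. Being higher in all 3 against stromal genes therefore does not set these members apart. The exact sign-flip permutation p was 0.25 for each member named here against either list, the smallest that 3 pairs can give.

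**Figure D2:**
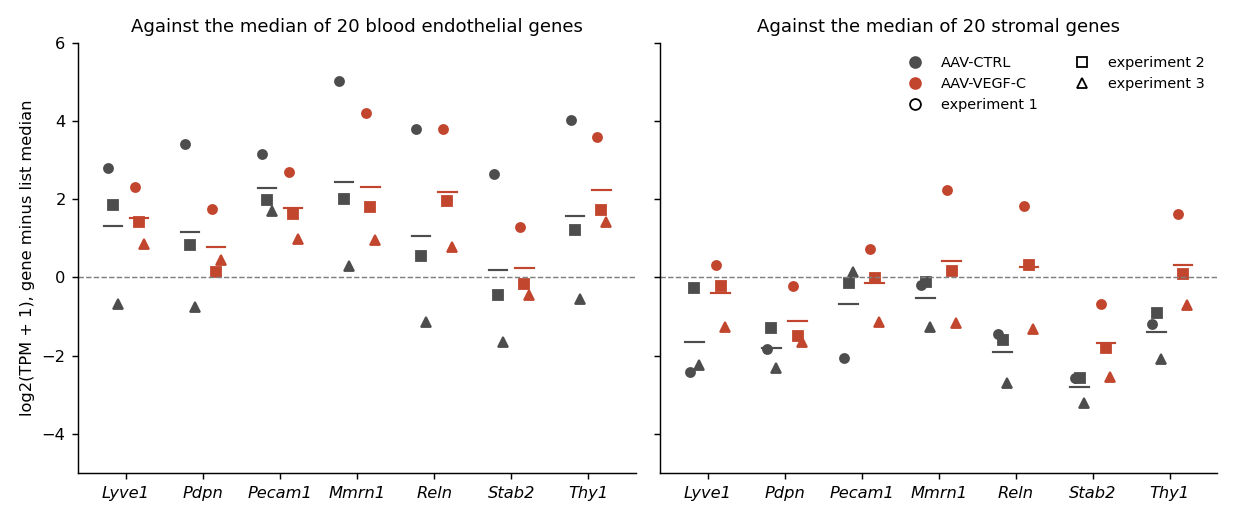
Difference in log2(TPM + 1) between each gene and the median of 20 blood endothelial genes (left) or 20 stromal genes (right) in each library, with lines at group means (n = 3) and a dashed line at 0. Most points lie above 0 on the left and below 0 on the right, and experiment 1 (circles) is the highest of each group on the left.

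Expression of the members was next compared between AAV-VEGF-C and AAV-CTRL to ask whether long-term VEGF-C changed the lymphatic marker profile. None of the 7 passed the test in either direction by the quasi-likelihood test of edgeR, where 10.5% of 17459 genes were called higher and 0.659% lower (115 genes, or 362 with the replicate block). By DESeq2 none was called either, and the unadjusted p was under 0.05 for *Pecam1* alone by DESeq2 and for none by edgeR. The log2 fold change was -1.06 (SE 0.50, adjusted p = 0.212) for *Pecam1* and -0.60 (SE 0.44, adjusted p = 0.415) for *Pdpn*. It was 0.01 (SE 0.51) for *Lyve1*, -0.06 (SE 0.74) for *Mmrn1* and -0.04 (SE 0.68) for *Stab2*, with adjusted p values of 0.997, 0.973 and 0.984. *Reln* had 0.53 (SE 0.74, adjusted p = 0.687) and *Thy1* 0.25 (SE 0.58, adjusted p = 0.824). The SE exceeded the change itself for the 5 members other than *Pdpn* and *Pecam1*. The median over the members was -0.04, beside 0.00 over all genes tested. Fewer cells of a type and less RNA per cell cannot be told apart in these bulk samples.

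*Pecam1* was called lower under 2 other settings. Its log2 fold change was -1.36 (adjusted p = 0.0173) when low genes were not filtered out, where 2.64% of genes were called lower and the median of all genes was 1.88. It had -1.73 (adjusted p = 0.0336) without both libraries of experiment 1, a setting chosen after seeing the data in which 0.572% of genes were called lower. Across all settings its adjusted p ranged from 0.0173 to 0.802. In CPM, counts scaled to the TMM-adjusted library total, *Pecam1* was at 81.7, 181 and 321 in AAV-CTRL 1, 2 and 3 and at 123, 91.0 and 68.7 in AAV-VEGF-C. The AAV-CTRL libraries thus held both the second lowest and the highest values.

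The groups appeared different on the TPM scale. In TPM 5 of the 7 members had all 3 AAV-VEGF-C values under all 3 AAV-CTRL values, as did 36.4% of all tested genes. In CPM all 7 members overlapped between groups, where 17.6% of genes were lower and 22.3% higher without overlap. On log2(TPM + 1) the median of all tested genes was itself -0.72. Below that shift, limma gave *Pecam1* at -1.77 (adjusted p = 0.0778), *Pdpn* at -1.63 (0.0609), *Mmrn1* at -1.37 (0.118), *Stab2* at -1.20 (0.112) and *Lyve1* at -1.06 (0.172), none of them called. *Thy1* at -0.59 and *Reln* at -0.14 lay above the shift.

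**Figure D3:**
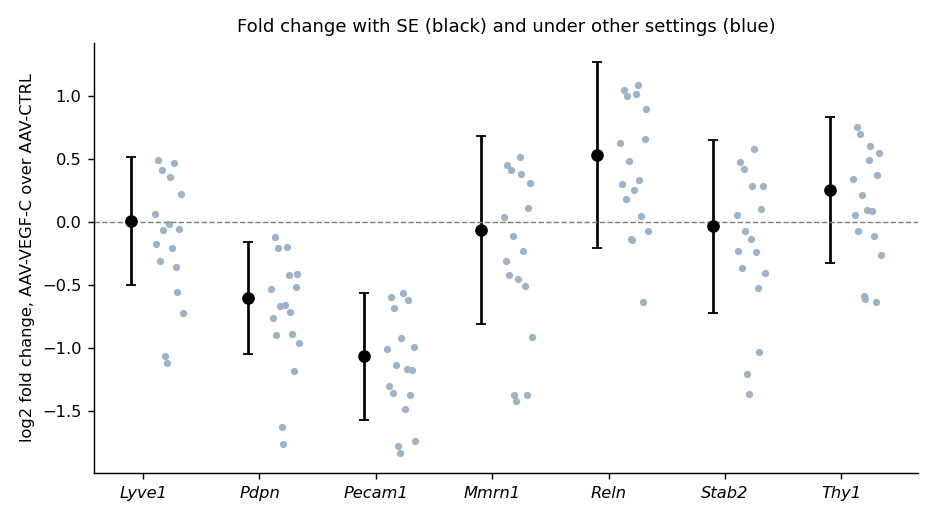
Log2 fold change of AAV-VEGF-C over AAV-CTRL for each gene by edgeR (black, bars are SE, n = 3 libraries per group) and under each other setting (blue). *Pdpn* and *Pecam1* lie below 0 under every setting, while the other 5 genes have values on both sides of 0.

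The lists set beside the members were tested in the same fit. Of 16 other lymphatic genes, with *Ccl21a* (287 ± 56.3 TPM for AAV-CTRL and 129 ± 71.2 TPM for AAV-VEGF-C) the most abundant, none was called and the median log2 fold change was 0.26. Of the 19 blood endothelial genes tested none was called (median -1.03), and none of 16 pan-endothelial genes (median -0.62). Of 19 stromal genes tested, *Dcn* and *Ogn*, which encode small matrix proteoglycans, were called lower (log2 fold change -1.69 and -1.85, adjusted p = 0.0287 and 0.0313), and the median was -1.10. This count was 10 of 20 by DESeq2, 12 of 20 without the filter and 5 of 19 with the replicate block, and 0 with scaling on the most abundant genes or with any library left out. Over all genes the calls lower were 501 of 44552 by DESeq2, 1175 of 44563 without the filter and 362 of 17459 with the block. With scaling on the most abundant genes they were 8 of 17459. Without AAV-CTRL replicate 2 or AAV-CTRL replicate 3 no gene of any list or of all genes was called. None of 16 housekeeping genes was called (median -0.68), nor of 10 mural (median -0.62) or 8 arachnoid genes (median -0.30). Housekeeping calls were 2 lower with the replicate block, 4 by DESeq2, 5 without the filter and 1 by limma on log2(TPM + 1). In that limma fit 434 of 17459 genes were called lower. With each library left out in turn, the median ranged from -1.64 to -0.09 for blood endothelium, where the last value was without AAV-CTRL 3, from -1.01 to -0.23 for the pan-endothelial list, from -1.46 to -0.78 for the stromal list and from -0.66, without AAV-VEGF-C 1, to 0.50 for the other lymphatic genes. Blood endothelial calls were 1 lower with the replicate block (*Slc2a1*), 1 without AAV-CTRL replicate 1, 1 without both libraries of experiment 1 and 8 without the filter. Of the other lymphatic genes 1 was called lower without AAV-VEGF-C replicate 1 and 1 without both libraries of experiment 1. Mural calls were 3 lower without the filter, 1 without AAV-CTRL replicate 1 and 1 without both libraries of experiment 1. Arachnoid calls were 1 lower without the filter and 1 by limma on log2(TPM + 1). Pan-endothelial calls were 4 lower without the filter, 2 without AAV-CTRL replicate 1 and 5 without both libraries of experiment 1. Over all genes 48 of 18198 were called lower without AAV-CTRL replicate 1 and 43 of 20106 without AAV-VEGF-C replicate 1. Without both libraries of experiment 1 they were 110 of 19222.

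The counts of *Mmrn1* and *Reln* did not follow depth within a group. *Reln* received 2684, 1613 and 1933 counts in the AAV-CTRL libraries of experiments 1, 2 and 3, and 336, 318 and 387 counts in those of AAV-VEGF-C. For *Mmrn1* they were 3240, 2182 and 2790 under AAV-CTRL, against 299, 240 and 316 under AAV-VEGF-C. Within AAV-VEGF-C the library totals differed 5.78-fold, but *Mmrn1* differed 1.32-fold and *Reln* 1.22-fold. *Stab2* had 90, 87 and 148 counts in AAV-VEGF-C, a 1.70-fold range, and *Thy1* 60, 64 and 112. *Pecam1* had the widest range, 4.51-fold, from 53 to 127 and 239 counts, and *Pdpn* was the most thinly covered, with 25, 33 and 74. The 7 members together received 1630, 677 and 437 CPM, scaled to the library total alone, in AAV-VEGF-C 1, 2 and 3, with 95% Wilson intervals of 1528 to 1739, 636 to 721 and 415 to 460. Their AAV-CTRL values were 1361, 968 and 976, with intervals of 1333 to 1390, 946 to 990 and 959 to 994. The intervals cover counting error only, and experiment 1 held the largest share in both groups.

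**Figure D4:**
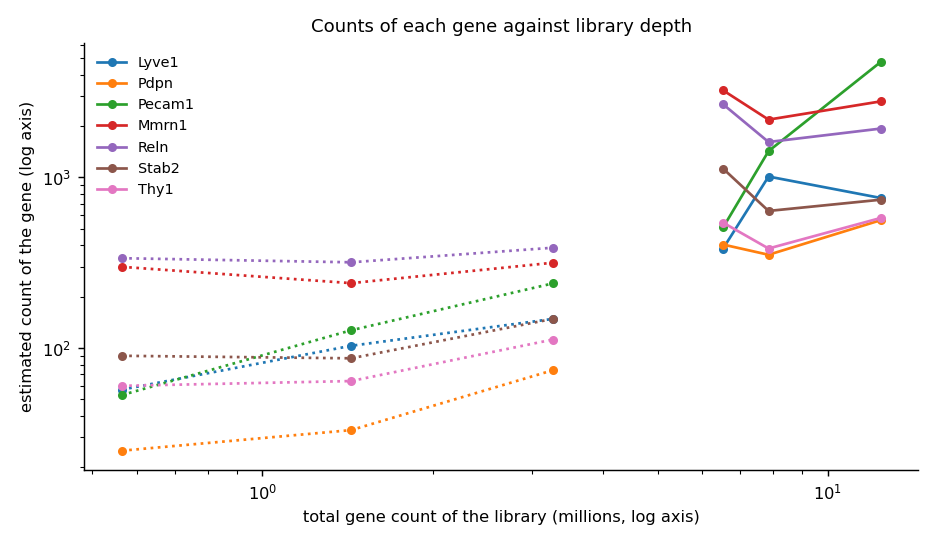
Estimated counts of each gene against the total count of the library, both on log axes, with solid lines joining the 3 AAV-CTRL libraries and dotted lines the 3 AAV-VEGF-C libraries. The *Mmrn1* and *Reln* lines are nearly flat in AAV-VEGF-C, while that of *Pecam1* is the steepest in both.

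Because experiment 1 stood apart in both groups, the members were compared between the 3 experiments, with the group as a term, a test chosen after seeing the data. *Stab2* (adjusted p = 0.025) and *Reln* (adjusted p = 0.0357) differed between experiments by edgeR, as did 2.35% of 17459 genes. *Stab2* was lower than in experiment 1 by a log2 fold change of -1.44 in experiment 2 and -2.07 in experiment 3. *Reln* was at -1.44 and -2.26. *Mmrn1* had changes of similar size, -1.50 and -2.21, and missed the threshold (adjusted p = 0.0606), as did *Thy1* with -1.21 and -1.61 (adjusted p = 0.106). The 3 genes whose proteins formed the gate were not called (*Pdpn* adjusted p = 0.378, *Lyve1* 0.54, *Pecam1* 0.948). In CPM, *Pdpn*, *Mmrn1*, *Reln*, *Stab2* and *Thy1* were highest in experiment 1 of both groups, as were 20.4% of all genes. In AAV-VEGF-C, *Reln* was at 776 CPM in experiment 1 and at 228 and 111 CPM in the others, and *Mmrn1* at 691, 172 and 90.9 CPM. In AAV-CTRL, *Reln* was at 431, 205 and 131 CPM, and *Mmrn1* at 520, 278 and 189 CPM.

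These calls depended on the libraries and the scale. Without AAV-CTRL replicate 2, AAV-VEGF-C replicate 1 or AAV-VEGF-C replicate 2 none of the 7 was called between experiments. Over all genes 143 of 18220, 510 of 20106 and 296 of 20250 were called there. Without AAV-CTRL replicate 3 or AAV-VEGF-C replicate 3 there were 3 members, beside 1021 of 18087 and 1367 of 18549 genes. Limma on log2(TPM + 1) and scaling by library size alone gave 0 members, beside 486 and 442 of 17459 genes. Depth moved with the experiment, since experiment 1 was the shallowest of each group. So did the other cell types. All 11 macrophage genes were lowest in experiment 1 in both groups, and *Csf1r*, the receptor that marks macrophages, was at 1.97 and 5.92 TPM in experiment 1 of AAV-CTRL and AAV-VEGF-C and at 450, 253, 224 and 130 TPM in the other libraries. The part of depth or of macrophage RNA in these differences was not tested. Of the 16 other lymphatic genes, 3 were called between experiments, the transcription factor genes *Prox1* (adjusted p = 0.0335) and *Tbx1* (adjusted p = 0.0364) and the chemokine receptor gene *Ackr2* (adjusted p = 0.0381). In all, 12 of the 16 had negative log2 fold changes in both experiment 2 and experiment 3 against experiment 1, and *Gata2* had positive ones (1.17 and 1.67, adjusted p = 0.452). Of the 11 macrophage genes 10 were called and all 11 had positive changes, and of 19 stromal genes none was called.

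**Figure D5:**
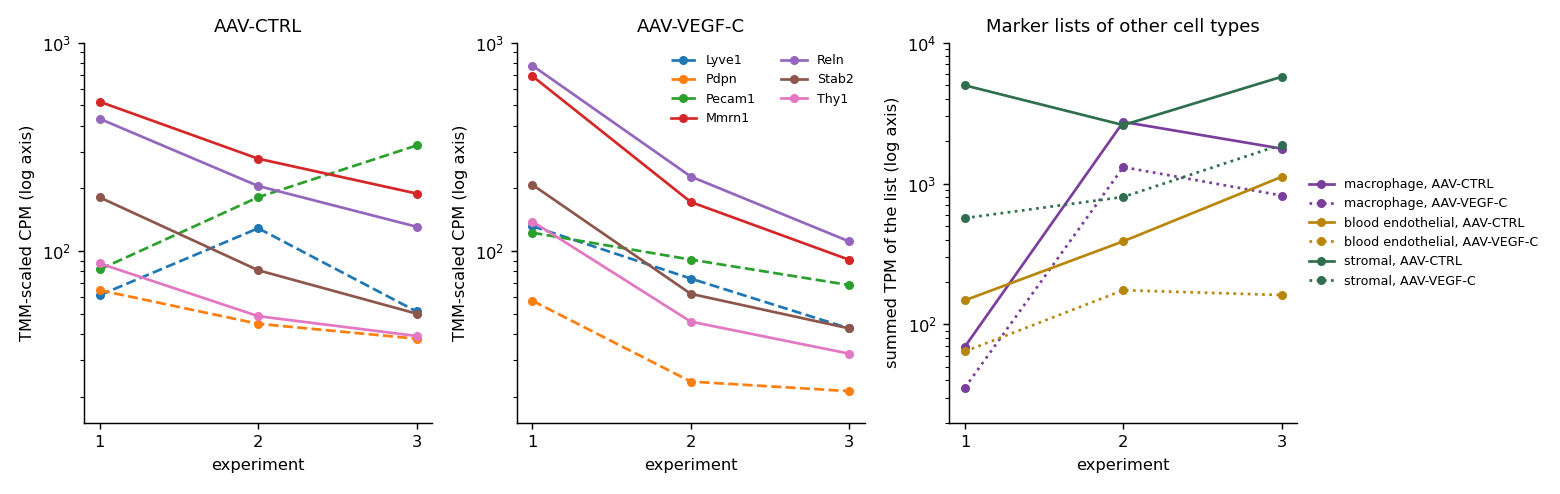
CPM of the 7 genes by experiment in AAV-CTRL (left) and AAV-VEGF-C (middle) on log axes, with dashed lines for the genes of the sorted proteins, and the summed TPM of 3 lists of other cell types (right). *Mmrn1*, *Reln*, *Stab2* and *Thy1* are highest in experiment 1 of both groups, where the macrophage sum is lowest. Lines only join the values of a gene or list.

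Several members are also made by other cells, whose markers were therefore read beside them. *Lyve1* was highest in experiment 2 in TPM, as was the macrophage sum (2739 TPM in AAV-CTRL and 1308 TPM in AAV-VEGF-C). In CPM this held for *Lyve1* in AAV-CTRL alone, with 61.5, 129 and 51.3 in experiments 1, 2 and 3. In AAV-VEGF-C *Lyve1* was highest in experiment 1, with 132, 73.8 and 42.6 CPM. In experiment 1, *Lyve1* was at 16.0 and 9.61 TPM, beside a macrophage sum of 69.6 and 35.6 TPM. *Stab1* made up 41.9 and 22.1 TPM of that sum, *Csf1r* was at 1.97 and 5.92 TPM and *Mrc1* at 8.25 and 2.30 TPM, and 2 of the 11 genes, *Cd163* and *Adgre1*, were at 0 in AAV-VEGF-C 1 and none in AAV-CTRL 1. *Stab2* was not highest in experiment 2 of either group. Its paralog *Stab1*, a scavenger receptor of macrophages and some endothelium, was, with 41.9, 269 and 159 TPM in AAV-CTRL and 22.1, 161 and 95.7 TPM in AAV-VEGF-C. None of the 11 macrophage genes was called between groups (median log2 fold change -0.16). The gate excluded CD45+ cells, yet its gene *Ptprc* was at 25.7, 23.2, 15.1 and 9.81 TPM in the libraries of experiments 2 and 3, and at 0.119 and 0.337 TPM in experiment 1. The part of macrophage RNA in *Lyve1* was not tested. *Pecam1* ran beside the blood endothelial genes in AAV-CTRL, where *Flt1*, the VEGF receptor VEGFR1, was at 1.52, 23.7 and 106 TPM. In AAV-VEGF-C *Flt1* was at 3.97, 16.8 and 10.0 TPM, and *Pecam1* was likewise highest in experiment 2 in TPM. In CPM *Pecam1* was highest in experiment 1 of AAV-VEGF-C, with 123, 91.0 and 68.7. The part of blood endothelial RNA in *Pecam1* was not tested. *Pdpn* is also expressed by fibroblasts and arachnoid cells. It was lower in TPM in AAV-VEGF-C without overlap, as were 17 of 20 stromal genes, 4 of 8 arachnoid genes and 36.4% of all genes tested. In CPM *Pdpn* overlapped between groups, 10 stromal genes and 1 arachnoid gene were lower without overlap, and 2 arachnoid genes were higher. Over all genes tested, 17.6% were lower and 22.3% higher in CPM without overlap. The arachnoid genes summed to 174 to 185 TPM under AAV-CTRL and 26.9 to 109 TPM under AAV-VEGF-C, and their part in *Pdpn* was not tested.

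The markers of T cells were read beside *Thy1*. The CD3 genes of the T cell receptor complex, *Cd3e* and *Cd3g*, were at 0 in AAV-CTRL 1, where *Thy1* was at its highest, and no library exceeded 1.32 TPM for either. *Cd3d* reached 5.39 TPM in AAV-VEGF-C 1 and was at or under 1.2 TPM elsewhere. The 8 T cell genes summed to 2.52 to 24.1 TPM in AAV-CTRL and 9.82 to 17.5 TPM in AAV-VEGF-C, with *Cd4*, which macrophages may also express, the largest term in experiments 2 and 3. Of the 4 T cell genes tested none was called by edgeR (median log2 fold change 2.55). Of these, 3 were higher in CPM without overlap, as were 22.3% of all genes tested. With the replicate block *Cd3d* was called higher (3.54, adjusted p = 0.0308), by DESeq2 1 of 8 genes was, and without the filter 3 of 8. *Cd3d* was at 5.394, 1.201 and 1.08 TPM in AAV-VEGF-C 1, 2 and 3. Each value lay under the 99th percentile of the receptor, keratin-associated protein and defensin background of its library. The other T cell genes lay under it too in AAV-VEGF-C, except *Cd4* in AAV-VEGF-C 2 and 3 and *Lck* in AAV-VEGF-C 3. Fibroblast transcripts, by contrast, far exceeded *Thy1*, and *Col1a1* was at 910, 433 and 616 TPM in AAV-CTRL and at 109, 179 and 391 TPM in AAV-VEGF-C. *Thy1* was highest in experiment 1 of both groups, where *Col1a1* was highest in AAV-CTRL and lowest in AAV-VEGF-C. The part of fibroblast or T cell RNA in *Thy1* was not tested. Beside *Reln*, the 12 neural and glial genes summed to 22.4 to 57.5 TPM under AAV-CTRL and 13.6 to 27.0 TPM under AAV-VEGF-C. *Snap25*, a synaptic protein, was at 8.55, 2.0 and 10.8 TPM in AAV-CTRL and at 1.26, 5.32 and 2.15 TPM in AAV-VEGF-C, below *Reln* in every library. *Rbfox3*, a nuclear protein of neurons, was at or under 0.512 TPM in AAV-CTRL and between 1.75 and 2.96 TPM in AAV-VEGF-C, and *Gad1*, an enzyme of GABA synthesis, was at or under 0.161 and 1.29 TPM. Of 10 neural and glial genes tested, 4 were called higher (*Rbfox3*, *Gad1*, *Nefm* and *Sox10*) and *S100b* lower, beside 10.5% of all genes higher and 0.659% lower. With each library left out 0 to 4 were called higher and 0 lower, beside 0 to 1771 and 0 to 48 of all genes. The 99th percentile of the receptor, keratin-associated protein and defensin background was 5.95, 2.94 and 1.86 TPM in AAV-VEGF-C 1, 2 and 3. These 4 genes lay under it in AAV-VEGF-C, except *Rbfox3* (2.96 TPM) and *Sox10* (3.58 TPM) in AAV-VEGF-C 3. Whether the neural and glial transcripts bear on *Reln* was not tested.

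The known partners of the members were examined as a list of 33 genes, of which 32 were found by name and 28 could be tested. None was called higher and 1 lower, beside 0.659% of all genes lower, with a median log2 fold change of -0.54. The counts were 1 higher and 2 lower with the replicate block, 1 and 4 by DESeq2, 2 and 6 without the filter, and 0 and 0 with any library left out. Over all genes they were 2241 and 362 with the block, 5659 and 501 by DESeq2 and 9382 and 1175 without the filter. Without AAV-CTRL replicate 2 or AAV-CTRL replicate 3 they were 0 and 0 over all genes too. The gene called lower was *Rdx* (log2 fold change -1.23, SE 0.28, adjusted p = 0.0304), which encodes radixin, a linker of membrane proteins such as podoplanin to actin. It was at 68.1, 53.2 and 99.1 TPM in AAV-CTRL and at 7.58, 17.3 and 23.6 TPM in AAV-VEGF-C, with no overlap, and without each library in turn it missed the threshold. The related linkers *Ezr* (-0.75, adjusted p = 0.297) and *Msn* (-0.57, adjusted p = 0.329) were not called. *Clec1b*, the podoplanin receptor of platelets, was at or under 0.345 TPM in every library. Among the reelin receptors, *Vldlr* gave -1.10 (adjusted p = 0.0842) and *Lrp8* 2.31 (adjusted p = 0.0794) on the log2 scale. *Lrp8* was at 4.51, 2.67 and 5.17 TPM in AAV-CTRL and at 24.6, 10.2 and 6.10 TPM in AAV-VEGF-C, so that its groups did not overlap although it missed the threshold. With the replicate block it was called higher (2.02, adjusted p = 0.024). *Dab1*, the adaptor that carries the reelin signal into the cell, stayed at or under 1.61 TPM. The hyaluronan synthase gene *Has2* was at or under 0.208 TPM, and *Has1* at or under 1.64 TPM. Among the relatives and ligands of multimerin, *Emilin1* (-0.80, adjusted p = 0.214), *Mmrn2* (-0.73, adjusted p = 0.333) and *F5*, coagulation factor V (-0.99, adjusted p = 0.149), were not called. *Itgam*, a subunit of an integrin that binds THY1, was at 0.273 TPM in AAV-CTRL 1 and 32.1 TPM in AAV-CTRL 2, the same order as the macrophage genes.

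The members varied together to different degrees. Over the 6 libraries, Pearson's r of log2 CPM was between 0.931 and 0.988 for the 6 pairs among *Mmrn1*, *Reln*, *Stab2* and *Thy1*. *Pdpn* had 0.741 to 0.929 with these genes, and *Lyve1* 0.588 to 0.661. *Pecam1* had -0.201 to 0.077 with them. The libraries differ in group, experiment and depth, which these values share, so they are given as a description. Among 5978 protein-coding genes averaging at least 5 TPM, *Flt4*, the VEGF-C receptor gene, was the most like both *Reln* (r = 0.993, Spearman's rho = 1.0) and *Thy1* (r = 0.994, rho = 0.943). The next most like *Reln* was the lymphatic chemokine gene *Ccl21d* (r = 0.992), whose reads near-identical copies may share. *Col18a1*, a basement membrane collagen, was next for *Thy1* (r = 0.99) and first for *Stab2* (r = 0.975), and *Thy1* itself was next for *Stab2* (r = 0.974). *Pecam1* was most like *Ppp1cc* and the endothelial gene *Rgcc* (both r = 0.976). The genes most like *Mmrn1* were *Spry1* (r = 0.986), an inhibitor of growth factor signaling, and *Rab22a* (r = 0.979). Those most like *Lyve1* were *Sp2* (r = 0.966) and *Ppm1m* (r = 0.933), and those most like *Pdpn* were *Fbxw8* (r = 0.987) and *Rrp7a* (r = 0.983).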

How the data were processed

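Bulk RNA-seq of sorted dural LECs was analysed from 6 libraries, 3 per group. The authors deposited estimated counts per gene, unscaled, and TPM values, scaled by gene length and library total. Per the labels the kit was a stranded total RNA kit for low input. The submitters' processing notes name FastQC, Trimmomatic, DRAGEN, Picard and mm10, with no versions or roles. The counting program is not given in the sources used here. Of the gene identifiers, 98.1% matched GENCODE M21 on GRCm38.

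Groups came from the labels. Counts were rounded, filtered by filterByExpr, scaled by TMM and compared by the quasi-likelihood test of edgeR 4.0.16 (R 4.3.3) with Benjamini-Hochberg adjustment at 0.05 over all genes tested. DESeq2 1.42.0, the study's tool, and limma 3.58.1 were alternatives, with other scalings and filters, the replicate block, drawn-down counts and each library left out. Single values were compared by exact permutation tests. Libraries are separate pools of mice. Same-numbered libraries share an experiment by their labels, so the numbers were taken to pair them. Their deviations from group means correlated at 0.349, 0.248 and 0.161 across genes. AAV-CTRL 3 correlated more with AAV-VEGF-C 2 (0.206), so these values do not single out the pair of experiment 3. The main test did not use the pairing, while the replicate block did. In a simulated comparison edgeR found 97.5% of 200 changed genes. This share holds only for the size and spread of change that were simulated. It is not the power for the members in these libraries. Whether a change as small as those of the members would be recovered was not tested. Levels are compared between genes in TPM only.

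The members and lists were chosen with earlier results of these data known. Named genes are the 7 members, called genes or else the most abundant of each list, partner genes with a known role, and for each member the 2 most correlated genes. *Prox1*, *Tbx1*, *Csf1r*, *Cd163*, *Adgre1*, *Mrc1*, *Ptprc*, *Ackr2*, *Gata2*, *Flt1*, *Col1a1*, *Snap25*, *Slc2a1* and the T cell genes were named after their values were seen. Depth ranged from 564475 to 12399498 counts and limits the thinly covered AAV-VEGF-C libraries most.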

Additional observations from a re-analysis of the deposited data

How the results depend on the processing

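No member was called higher under any setting run. The count of members called lower, 0, became 1 (*Pecam1*) without the filter on low counts and without both libraries of experiment 1, and stayed at 0 when each library was left out. The replicate block gave 0 calls in either direction and turned *Lyve1* from 0.01 to -0.018, and it changed no call of a member. In the lists it moved the calls lower from 2 to 5 for stromal, 0 to 1 for blood endothelial, 0 to 2 for housekeeping and 1 to 2 for partner genes, and the calls higher from 0 to 1 for T cell and partner genes. Over all genes it moved the calls lower from 115 to 362 and the calls higher from 1835 to 2241. The number of members called between experiments, 2, became 4 by DESeq2 and with counts drawn down, 0 with library size alone and with limma on log2(TPM + 1), and 0 to 3 when each library was left out. Over all genes, 411 of 17459 became 706 of 44563 by DESeq2 and 250 of 7579 with counts drawn down. It was 442 with library size alone, 486 with limma, and 143 to 1367 when each library was left out.

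*Pecam1* and *Pdpn* kept their sign under every setting. *Lyve1* turned to -0.17 with library size alone, -0.31 with no filter, -0.062 by DESeq2, -1.06 and -1.11 by limma with pseudocounts of 1 and 0.1, and -0.72 without experiment 1. With DESeq2 size factors, scaling on the 2000 most abundant genes, a mean TPM of at least 5 and counts drawn down, *Mmrn1* turned to 0.037, 0.45, 0.41 and 0.51, and *Stab2* to 0.058, 0.47, 0.42 and 0.28. By limma with pseudocounts of 1 and 0.1 and without experiment 1, *Reln* turned to -0.14, -0.14 and -0.073, and *Thy1* to -0.59, -0.61 and -0.26; without a filter *Thy1* was -0.069. The median of all genes tested was 1.88 without a filter, 2.29 by DESeq2, -0.72 and -1.04 by limma, -0.10 with library size alone and 0.45 with the most abundant genes.

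With each library left out, log2 fold changes ranged from -0.55 to 0.47 for *Lyve1*, -1.18 to -0.42 for *Pdpn*, -1.48 to -0.62 for *Pecam1*, -1.37 to 0.38 for *Mmrn1*, -0.64 to 1.08 for *Reln*, -1.03 to 0.57 for *Stab2* and -0.63 to 0.60 for *Thy1*. The difference against blood endothelial genes then ranged from -0.81 to 0.93 for *Lyve1*, -1.33 to 0.75 for *Pdpn*, -0.98 to -0.08 for *Pecam1*, -1.20 to 1.18 for *Mmrn1*, 0.01 to 2.49 for *Reln*, -0.87 to 1.29 for *Stab2* and -0.39 to 1.90 for *Thy1*. Against stromal genes it ranged from 0.86 to 1.94 for *Lyve1*, 0.24 to 0.96 for *Pdpn*, -0.15 to 1.04 for *Pecam1*, 0.03 to 1.73 for *Mmrn1*, 1.41 to 2.98 for *Reln*, 0.61 to 1.55 for *Stab2* and 1.09 to 2.25 for *Thy1*. A fit with an arm reduced by 1 library assumes that the other libraries vary alike. Over all genes, 1835 higher and 115 lower calls became 2241 and 362 with the replicate block, 9382 and 1175 without a filter, 5659 and 501 by DESeq2, 1112 and 434, or 1281 and 163, by limma with pseudocounts of 1 and 0.1, 12 and 0 with counts drawn down, 9 and 0 at a mean TPM of at least 5, 2578 and 8 scaled on the most abundant genes, 2054 and 53 with library size alone, 2544 and 578 at an adjusted p under 0.1, and 0 to 1771 and 0 to 48 when each library was left out. The cause of these differences was not tested. Low counts limit *Pdpn* most, with 25 counts in AAV-VEGF-C 1, where *Pecam1*, *Lyve1* and *Thy1* had 53, 57 and 60.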
